A study of Mus musculus with 16 samples.

Results

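Trimethylation of lysine 4 of histone H3 (H3K4me3) was compared between differentiated and undifferentiated MC3T3-E1 cells, a mouse pre-osteoblast line that lays down mineralised matrix in culture. The comparison rests on 15116 regions of H3K4me3 chromatin immunoprecipitation and sequencing (ChIP-seq), 8196 from differentiated and 6920 from undifferentiated cells, of 314892 regions in the 14 region lists of the series. These members were all regions of both H3K4me3 lists. They were sorted by whether a transcription start site (TSS) lay within 1 kb, by whether the other list held the same promoter, by width and by their rank within their own list. The differentiated cells had been kept for 15 days in medium with ascorbic acid (50 µg/mL) and glycerol-2-phosphate (10 mM), and the undifferentiated cells in the same medium without these additions. Both states received ethanol vehicle for 3 h, and per the labels' protocol the differentiated cells alone were homogenised and spun through sucrose to remove their mineralised matrix. That step and differentiation cannot be told apart in these data. Each state is represented by 1 list of merged replicate peaks. No difference between states therefore had a replicate check or a p-value, and how deeply each list was sequenced is unknown. Intervals in brackets are 95% intervals that cover counting error over genes or regions only, and neighbouring genes that share a region are not independent.

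H3K4me3 is deposited by SET1 and MLL methyltransferase complexes and removed by KDM5 demethylases. It sits on the nucleosomes that flank the start sites of genes that are transcribed or poised, and at CpG islands it is recruited in part through CpG-binding subunits of those complexes. Unusually wide H3K4me3 domains are known from genes that define the identity of a cell type. In the osteoblast lineage such genes include Runx2, the runt-domain factor needed for bone formation, and genes of the collagen matrix. H3K9Ac and H4K5Ac, used here beside it, are acetylations of active chromatin, H3K4me1 lies on enhancers and beside promoters, and H3K36me3 follows elongating RNA polymerase through transcribed genes.

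The promoters below carry the contrast between the states, since Spp1, Phospho1 and Bgn had an H3K4me3 region in differentiated cells only, Fosl1 in undifferentiated cells only, and Runx2 in both. Each line gives the 200 bases before the start site farthest upstream, 5′ to 3′ on the gene's strand in mm9, with CpG dinucleotides in capitals.
Spp1 (chr5:104863937-104864136, + strand): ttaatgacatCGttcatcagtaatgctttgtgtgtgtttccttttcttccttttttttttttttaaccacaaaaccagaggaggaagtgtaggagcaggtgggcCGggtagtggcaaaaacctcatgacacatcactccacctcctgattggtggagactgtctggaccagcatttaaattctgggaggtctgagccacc
Phospho1 (chr11:95685613-95685812, + strand): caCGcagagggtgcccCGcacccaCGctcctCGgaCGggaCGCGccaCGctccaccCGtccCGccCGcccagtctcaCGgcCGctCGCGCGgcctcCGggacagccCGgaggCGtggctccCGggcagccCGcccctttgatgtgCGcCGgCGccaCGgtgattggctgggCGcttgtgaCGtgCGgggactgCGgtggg
Bgn (chrX:70728741-70728940, + strand): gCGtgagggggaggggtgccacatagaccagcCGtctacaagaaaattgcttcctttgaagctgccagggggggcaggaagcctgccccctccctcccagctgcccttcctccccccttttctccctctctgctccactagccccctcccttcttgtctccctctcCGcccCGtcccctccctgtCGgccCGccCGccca
Fosl1 (chr19:5447503-5447702, + strand): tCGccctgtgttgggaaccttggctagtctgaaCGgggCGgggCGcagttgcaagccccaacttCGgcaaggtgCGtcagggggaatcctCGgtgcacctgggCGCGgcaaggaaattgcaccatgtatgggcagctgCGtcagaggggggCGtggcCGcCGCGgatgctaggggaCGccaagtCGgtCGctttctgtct
Runx2 (chr17:44951747-44951946, - strand): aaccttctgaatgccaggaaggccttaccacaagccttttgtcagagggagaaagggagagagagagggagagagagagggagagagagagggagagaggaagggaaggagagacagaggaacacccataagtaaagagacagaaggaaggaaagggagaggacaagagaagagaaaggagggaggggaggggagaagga
These windows held 2 CpG dinucleotides at Spp1, 29 at Phospho1, 7 at Bgn, 17 at Fosl1 and 0 at Runx2. Both CpG-poor and CpG-dense promoters were therefore among those marked in differentiated cells only. The core RUNX motif TGTGGT, searched on both strands, was present once in the windows of Spp1 and Runx2 and in none of the other 3. Over all genes, 10.3% of such windows held it.

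Differentiated cells had more H3K4me3 regions that covered less of the genome. The 8196 regions of differentiated cells covered 21.8 Mb with a median width of 2417 bp, and the 6920 regions of undifferentiated cells covered 26.4 Mb with a median width of 2865.5 bp. Regions wider than 5 kb made up 3.72% of the differentiated list, 305 regions, and 19.8% of the undifferentiated list, 1369 regions. Above 10 kb there were 29 regions in differentiated and 313 in undifferentiated cells. Region widths were bunched at certain values, more so in differentiated cells: the most frequent single width was 1251 bp in differentiated cells, with 43 regions, and 1545 bp in undifferentiated cells, with 10. In both lists nearly every region lay at a promoter of a protein-coding gene, 95.9% (95.5 to 96.4) in differentiated and 96.9% (96.4 to 97.3) in undifferentiated cells.

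Most regions were found in both states. Of the differentiated regions 6661, or 81.3% (80.4 to 82.1), overlapped an undifferentiated region by at least 1 bp, and 1535 did not. Of the undifferentiated regions 6626, or 95.8% (95.2 to 96.2), overlapped a differentiated region, and 294 did not. Regions found in differentiated cells only lay at a promoter in 91.1% of cases and between genes in 5.34%, against 97.1% and 1.38% of the differentiated regions that were shared. The overlaps formed 6571 pairs of 1 region in each state. In a further 42 places 1 undifferentiated region met several differentiated regions, and in 6 places 1 differentiated region met several undifferentiated regions.

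Among 22226 genes, 1458 (6.56%) had H3K4me3 within 1 kb of a TSS in differentiated cells only, 323 (1.45%) in undifferentiated cells only, and 7447 (33.5%) in both states. The remaining 12998 had no region at a promoter in either state. With the 1276 lowest-scoring regions of the differentiated list left out, both lists held 6920 regions. Then 671 genes were marked in differentiated cells only and 700 in undifferentiated cells only. The cut itself moved 377 genes from both to undifferentiated only, and 787 from differentiated only to neither. Near-equal counts follow largely from the equal lengths. Genes marked in 1 state mostly had no region nearby in the other state: an undifferentiated region lay within 5 kb of a start site for 72 of the 1458 (4.94%), and a differentiated region within 5 kb for 47 of the 323 (14.6%).

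Promoters marked in 1 state only stood low in their own list. The deposited score is on a different scale in each list and was used only as a percentile within a list, with 100 the highest. In differentiated cells the median percentile was 13.9 for genes marked in differentiated cells only and 61.8 for genes marked in both, and 73.2% of the genes marked in differentiated cells only lay in the lowest 25% of the list. In the undifferentiated list the median was 23.2 for genes marked in undifferentiated cells only and 54.5 for genes marked in both. Across the 7447 genes marked in both states the percentiles in both lists correlated with Pearson's r = 0.68 and Spearman's rho = 0.70, a description over genes that share 2 lists. The score followed region width more closely in differentiated cells, with r = 0.82 between log width and log score, than in undifferentiated cells, with r = 0.48.

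The 10 genes that ranked highest among those marked in differentiated cells only included Inhba, Pth1r, Sphk1 and Runx1t1. Others of the 10 had an undifferentiated region just outside the 1 kb limit, the closest 1047 bp from a start site. The differentiated regions at those promoters were shared with neighbouring genes. Inhba, which encodes the activin A subunit, had a region of 10138 bp at percentile 92.7 in differentiated cells (chr13:16103251-16113388) and none within 1 kb of a start site in undifferentiated cells, where the nearest lay 2679 bp away. Pth1r, the receptor for parathyroid hormone on osteoblasts, had 4836 bp at percentile 86.0 in differentiated cells (chr9:110641668-110646503), and the nearest undifferentiated region was 208350 bp away. Sphk1, a kinase that makes sphingosine 1-phosphate, had 3731 bp at percentile 78.4 in differentiated cells and none in undifferentiated cells. The highest of all, a region of 7244 bp at percentile 98.3 in differentiated cells, lay over the start sites of both Arpc5l, an actin-branching complex subunit, and Rpl35, a ribosomal protein gene.

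The 10 highest among genes marked in undifferentiated cells only included Fosl1, Nusap1, Oip5, Msh5, Rhof, Bcat1 and Crim1. Fosl1, the AP-1 factor FRA1, lay in a region of 23058 bp in undifferentiated cells at percentile 90.9 (chr19:5441526-5464583) that also covered Ccdc85b and Fibp, and the nearest differentiated region to its start sites was 7575 bp away. Nusap1 and Oip5, which act at the mitotic spindle and the centromere, shared a region of 4432 bp in undifferentiated cells and had none in differentiated cells. Several of these calls came from a wide undifferentiated region that reached a neighbouring gene. A start site of Rhof lay inside the 13226 bp undifferentiated region of Setd1b, and one of Npn2 inside a 46789 bp undifferentiated region of Cald1, while the differentiated regions of Setd1b and Cald1 were narrower and did not reach them.

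Markers of other cell types were marked to different extents. None of 14 adipocyte, 14 haematopoietic or 13 neural marker genes had a promoter region in either state. The endothelial list had 1 of 12 in differentiated cells, Flt1, and 0 of 12 in undifferentiated cells, and the skeletal muscle list had 1 of 14, Pax3, in both. The chondrocyte list had 4 of 14 in differentiated and 2 of 14 in undifferentiated cells, with Sox5 and Col11a1 in differentiated cells only. Sox5, at percentile 1.53 of the differentiated list, lost that call with lists of equal length, and Col11a1 did not. Of 14 fibroblast and smooth muscle genes, which mesenchymal cells also express, 7 were marked in differentiated and 6 in undifferentiated cells. Of 28 osteoblast transcription factor genes, 19 were marked in differentiated and 21 in undifferentiated cells. For comparison, 40.07% of all genes were marked in differentiated and 34.96% in undifferentiated cells. The members of these lists are set out by class in the plot of gene lists.

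**Figure D1:**
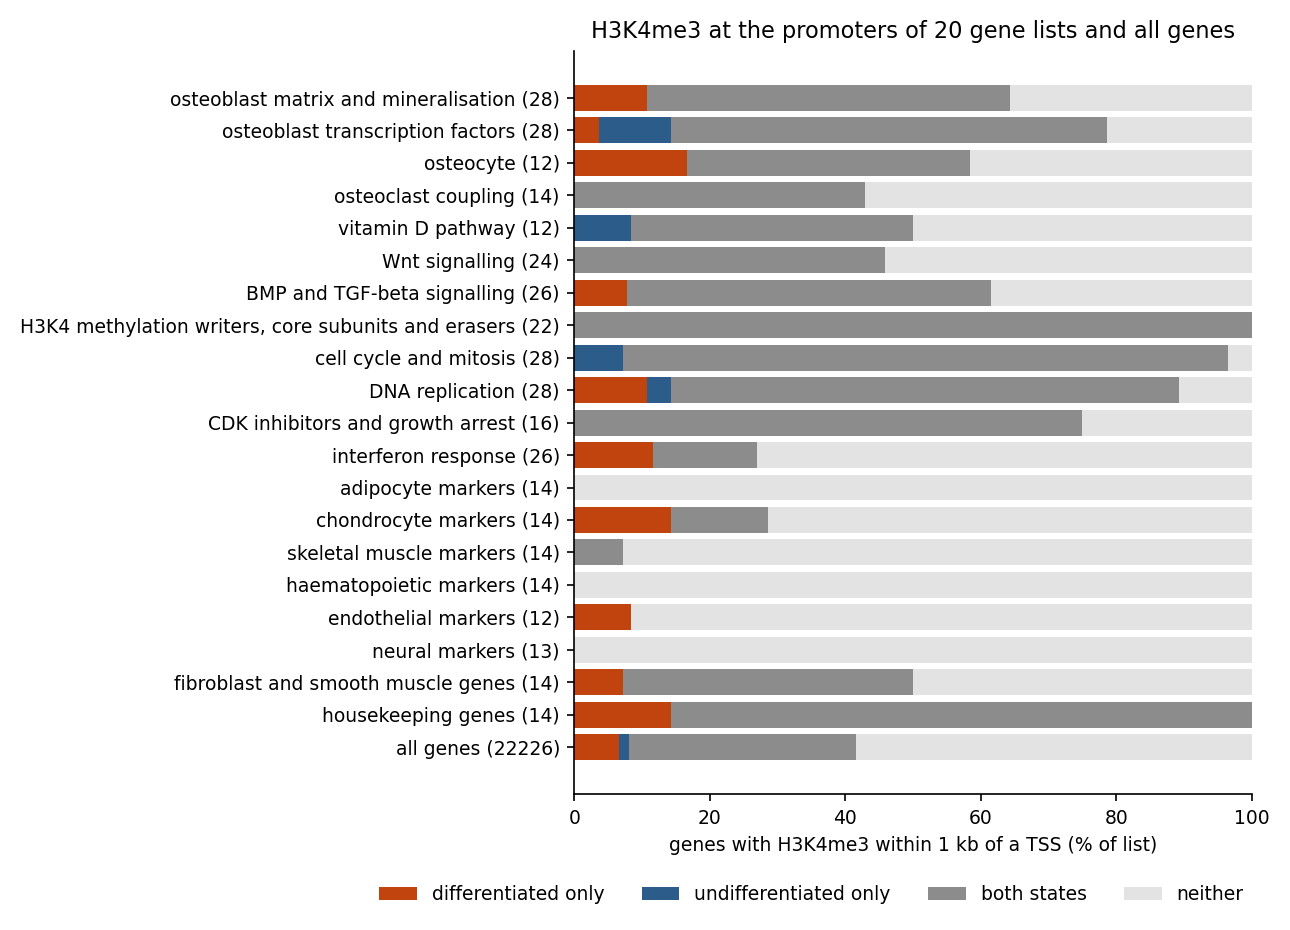
Share of each gene list (x axis, % of list, number of genes found in brackets) with an H3K4me3 region within 1 kb of a TSS in differentiated cells only, undifferentiated cells only, both or neither. Matrix genes had 3 of 28 in differentiated cells only and 0 in undifferentiated cells only, and transcription factor genes had 1 and 3. Adipocyte, haematopoietic and neural markers had none in either state. Over all genes, 6.56% were marked in differentiated cells only and 1.45% in undifferentiated cells only.

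Among 28 genes of the osteoblast matrix and its mineralisation, 3 were marked in differentiated cells only, 0 in undifferentiated cells only, 15 in both and 10 in neither. The 3 were Spp1, Phospho1 and Bgn, against 6.56% of all genes in that class. Spp1, which encodes the matrix protein osteopontin, had a region of 3035 bp in differentiated cells at percentile 37.6 (chr5:104863338-104866372), and the nearest undifferentiated region lay 21261 bp away. Phospho1, the phosphatase that releases phosphate inside matrix vesicles, had 1516 bp in differentiated cells at percentile 26.5 (chr11:95685739-95687254), and the nearest undifferentiated region was 28681 bp away. Bgn, the proteoglycan biglycan, had 2444 bp in differentiated cells at percentile 64.6 (chrX:70728578-70731021), and the nearest undifferentiated region was 139120 bp away. All 3 kept their class when the differentiated list was cut to the length of the undifferentiated list. Their percentiles above settle this, since the cut removed the lowest 15.6% of the list.

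Several genes of the osteoblast lineage had no H3K4me3 region at a promoter in either state, among them Ibsp, Bglap, Bglap2, Alpl, Enpp1 and Mmp13. Ibsp, which encodes bone sialoprotein, and Mmp13, the collagenase of bone matrix remodelling, nonetheless differed in H3K36me3 over the gene body. That mark covered 86.5% of Ibsp in differentiated cells and 0% in undifferentiated cells, and 90.3% of Mmp13 in differentiated cells and 0% in undifferentiated cells. Bglap, which encodes osteocalcin, had neither mark over its promoter or body in either state. Alpl, the alkaline phosphatase of mineralising cells, had H3K9Ac at its promoter in both states but no H3K36me3 over its body in either. The absence of a region says only that none passed the authors' threshold, not that the mark was absent.

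Of the 15 matrix genes marked in both states, 10 were at least 1.5-fold narrower in differentiated cells and 0 were at least 1.5-fold wider, with a median log2 width ratio of -0.72. Over all 7447 genes marked in both states, 23.8% were narrower by that measure, 7.64% wider, and the median log2 ratio was -0.14. Among the 657 widest region pairs of the whole comparison 68.0% were narrower, and many of these matrix genes have wide regions. Col5a1 and Col5a2, chains of the collagen V that nucleates collagen fibrils, spanned 5136 and 4185 bp in differentiated cells, against 21786 and 19032 bp in undifferentiated cells. Mgp, the inhibitor of calcification matrix Gla protein, spanned 2397 bp in differentiated and 10908 bp in undifferentiated cells. Postn, which encodes periostin, spanned 2422 bp in differentiated and 6860 bp in undifferentiated cells, and Sparc, which encodes osteonectin, 6360 bp in differentiated and 12015 bp in undifferentiated cells. The main fibrillar collagen genes differed less: Col1a1 spanned 12068 bp in differentiated and 14867 bp in undifferentiated cells, and Col1a2 7176 bp in differentiated and 11064 bp in undifferentiated cells. Col1a1 stood at percentile 99.9 of the differentiated and 99.7 of the undifferentiated list.

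Of 28 transcription factor genes of the lineage, 1 (Msx1) was marked in differentiated cells only, 3 (Sp7, Twist2 and Fosl1) in undifferentiated cells only, 18 in both and 6 in neither. Over all genes 6.56% were marked in differentiated cells only and 1.45% in undifferentiated cells only. Sp7, which encodes osterix, the factor acting downstream of RUNX2, had a region of 8823 bp in undifferentiated cells at percentile 37.0 (chr15:102188955-102197777). The nearest differentiated region lay 14965 bp away, although H3K9Ac was present at the Sp7 promoter in both states and H3K36me3 covered 99.8% of the gene in differentiated and 93.8% in undifferentiated cells. Twist2, a basic helix-loop-helix repressor of osteoblast maturation, had 2552 bp in undifferentiated cells and none in differentiated cells. Msx1, a homeobox gene, had 1805 bp at percentile 13.6 in differentiated cells, and it lost that call when the differentiated list was cut to equal length.

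Runx2 itself kept its wide marking. Its 2 promoter regions together spanned 21146 bp in differentiated and 21927 bp in undifferentiated cells, a log2 ratio of -0.05. The balance between them was not the same. At the upstream promoter the region was 13271 bp in differentiated cells (chr17:44941282-44954552), against 8923 bp in undifferentiated cells (chr17:44947933-44956855). At the downstream promoter it was 7875 bp in differentiated cells (chr17:44867552-44875426), against 13004 bp in undifferentiated cells (chr17:44864467-44877470). Of the other 17 transcription factor genes marked in both, 4 were wider in differentiated cells (Jund, Zfp521, Nfatc1 and Id2). A further 7 were narrower, among them Id1, Id3, Cbfb, Cebpb, Fosl2 and Dlx5. Over all genes marked in both, 7.64% were wider and 23.8% narrower. Id3, an inhibitor of basic helix-loop-helix factors, spanned 3128 bp in differentiated and 15537 bp in undifferentiated cells, while its relative Id2 spanned 6577 bp in differentiated and 2280 bp in undifferentiated cells. Cbfb, the partner subunit of RUNX proteins, spanned 3956 bp in differentiated and 11718 bp in undifferentiated cells.

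Signalling genes, like genes as a whole, were mostly marked in both states or in neither. Of all genes, 33.5% were marked in both and 58.5% in neither. Of 26 genes of BMP and TGF-β signalling, 2 (Grem1 and Inhba) were marked in differentiated cells only, 0 in undifferentiated cells only and 14 in both, of which 5 were narrower and 1 was wider in differentiated cells. The 2 are 7.69% of the list, near the 6.56% over all genes. Of 24 Wnt genes, 11 were marked in both and 13 in neither, and 4 of the 11 were narrower in differentiated cells, among them Wnt10b, a bone-promoting ligand, with 2273 bp in differentiated and 9014 bp in undifferentiated cells. One of the 11, Rspo2, a Wnt-enhancing secreted protein, was wider, with 3866 bp in differentiated and 2093 bp in undifferentiated cells. Of 14 genes by which osteoblasts act on osteoclasts, 6 were marked in both and 3 of these were narrower. Over all genes marked in both, 23.8% were narrower and 7.64% wider. Csf1, the growth factor of osteoclast precursors, spanned 4772 bp in differentiated and 30249 bp in undifferentiated cells. Tnfrsf11b, which encodes osteoprotegerin, spanned 3078 bp in differentiated and 6446 bp in undifferentiated cells. In the vitamin D list, Ncoa1 was marked in undifferentiated cells only, at percentile 0.694 of that list, and Vdr, the receptor, had no region within 1 kb in either state, with an undifferentiated region 2127 bp from its nearest start site.

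Proliferation genes were mostly marked in both states. Of 28 cell cycle genes 25 were in that class, and 2, Ccnb2 and Bub1, were marked in undifferentiated cells only, at percentiles 22.1 and 18.4 of that list. Mki67, the proliferation antigen Ki-67, spanned 3690 bp in differentiated and 2428 bp in undifferentiated cells, and Ccnd1, cyclin D1, 4802 bp in differentiated and 4794 bp in undifferentiated cells. Of the 25, 7 were narrower in differentiated cells, or 28.0%, against 23.8% of all genes marked in both, and they included Cdk1, Cdk2, Cdk4, E2f1 and Foxm1. Among 28 DNA replication genes 3 (among them Rfc4 and Pold1) were marked in differentiated cells only, 1 (Gins2) in undifferentiated cells only and 21 in both, of which 1 was narrower. The shares over all genes were 6.56% in differentiated cells only, 1.45% in undifferentiated cells only and 33.5% in both. Pold1 lost its call with lists of equal length. Of 16 genes of cell cycle inhibition and growth arrest 12 were marked in both states and 4 in neither. Of the 12, 2 (16.7%) were wider in differentiated cells, against 7.64% of all genes marked in both. They were inhibitors of cyclin-dependent kinases. Cdkn1b (p27) had 14306 bp in differentiated and 3951 bp in undifferentiated cells, and Cdkn2c (p18) 12042 bp in differentiated and 3638 bp in undifferentiated cells. Gadd45b and Gadd45g, stress-response genes of the same list, were narrower, with 4673 and 4175 bp in differentiated cells, against 12619 and 14463 bp in undifferentiated cells.

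All 22 genes of a list of H3K4 methyltransferases, their subunits, demethylases and the methyl-H3K4 readers Ing1, Ing4 and Taf3 were marked in both states. Their median log2 width ratio was -0.05, with 4 wider (Hcfc1, Kdm5b, Ing1 and Taf3) and 1 narrower in differentiated cells. Over all genes 33.5% were marked in both states. Of those genes 7.64% were wider and 23.8% narrower, with a median log2 ratio of -0.14. Kdm5b, an H3K4 demethylase, spanned 7146 bp in differentiated and 3330 bp in undifferentiated cells. Kdm2b, a CpG-binding demethylase, spanned 2388 bp in differentiated and 9307 bp in undifferentiated cells. Housekeeping genes included narrower regions too, at 5 of the 12 marked in both against 23.8% of all genes marked in both, among them Actb with 3967 bp in differentiated and 12061 bp in undifferentiated cells, and Gapdh with 4087 bp in differentiated and 7048 bp in undifferentiated cells. Of the 14 housekeeping genes 2 were marked in differentiated cells only, against 6.56% of all genes, among them Gusb at percentile 6.42, and both lost that call with lists of equal length.

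At shared regions H3K4me3 was narrower in differentiated cells by a small amount in the middle of the distribution and by a large amount among wide regions. Over the 6571 pairs the median width was 2596 bp in differentiated and 2893 bp in undifferentiated cells, and the median log2 ratio was -0.14 (-0.16 to -0.12), or 0.905-fold. At least 1.5-fold narrower in differentiated cells were 1616 pairs (24.6%), and at least 1.5-fold wider were 497 (7.56%). Pairs were also ordered by the geometric mean of both widths. In that order the 658 narrowest had a median log2 ratio of 0.16. Their median widths were 1555.5 bp in differentiated and 1390 bp in undifferentiated cells. The 657 widest had a median log2 ratio of -0.93, with 4501 bp in differentiated and 9007 bp in undifferentiated cells, and 68.0% of them were narrower. The spread of widths over the same pairs was smaller in differentiated cells. The SD of log2 width was 0.53 in differentiated and 0.85 in undifferentiated cells. Undifferentiated widths therefore weighed more in the order by mean width. The fall of the ratio with mean width cannot be told apart from these unequal spreads. Of the 287 pairs whose undifferentiated region exceeded 10 kb, 257 were narrower and 0 wider in differentiated cells, a subset chosen by the undifferentiated width itself.

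**Figure D2:**
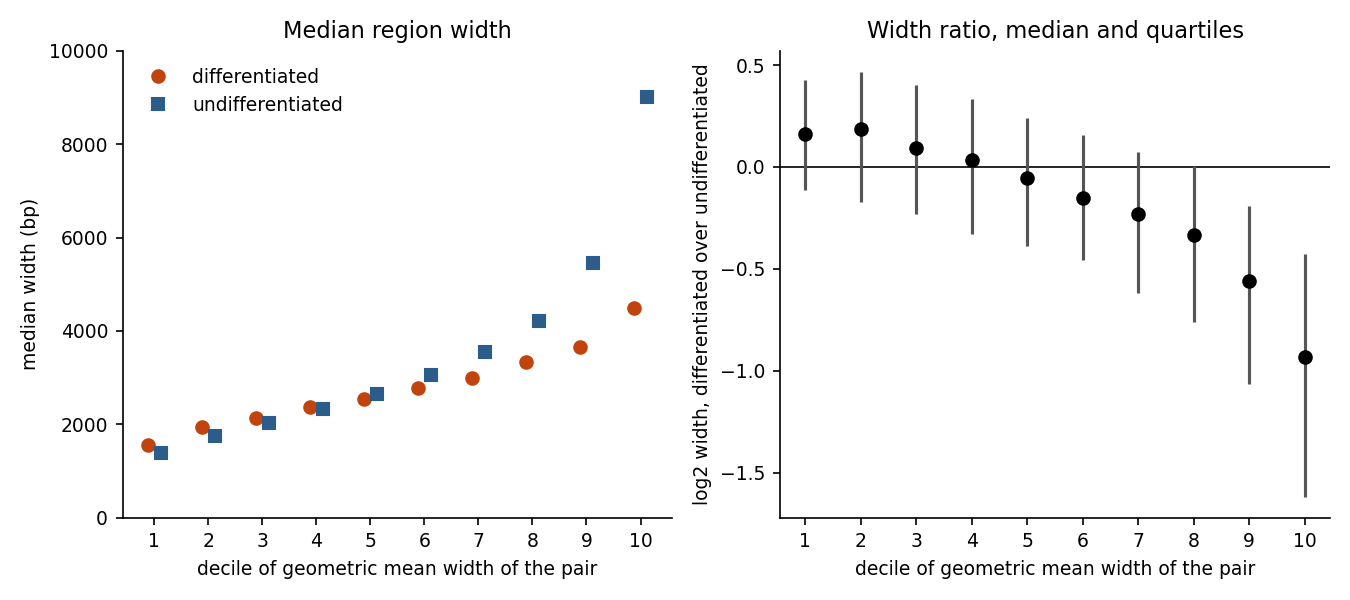
Median width in bp in differentiated and undifferentiated cells (left) and the log2 width ratio with its median (points) and quartiles (lines, right) for 6571 pairs of H3K4me3 regions in 10 groups by their geometric mean width. The median log2 ratio was 0.16 in the narrowest group and -0.93 in the widest.

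Among genes with a mean width of at least 2 kb, the largest fold differences towards narrower regions in differentiated cells were at Pgs1, Coro7, Cd248, Socs3 and Cirbp. At Coro7 the regions of 1529 bp in differentiated and 23993 bp in undifferentiated cells lay at different start sites. Cd248, the stromal surface protein endosialin, spanned 1683 bp in differentiated and 24446 bp in undifferentiated cells, where the region also covered other genes, and Gsn, the actin-severing protein gelsolin, 2283 bp in differentiated and 24198 bp in undifferentiated cells. Among the widest undifferentiated regions, Prrx1, a homeobox gene of limb mesenchyme, spanned 9076 bp in differentiated and 54363 bp in undifferentiated cells while standing at percentile 99.98 of the differentiated and 99.96 of the undifferentiated list. Cald1, the actin-binding protein caldesmon, spanned 6313 bp in differentiated and 66365 bp in undifferentiated cells over its promoters. Myh9, non-muscle myosin heavy chain, spanned 6365 bp in differentiated and 50955 bp in undifferentiated cells. Socs3, an inhibitor of cytokine signalling, and Pgs1 lay in the same undifferentiated region of 60245 bp, and their differentiated regions spanned 4380 bp at Socs3 and 2304 bp at Pgs1. Wider in differentiated cells were Eif4enif1, Eya1, a developmental phosphatase and coactivator, and Mid1, a microtubule-associated ubiquitin ligase. Eif4enif1 had 73708 bp in differentiated and 13936 bp in undifferentiated cells. However, the undifferentiated list held another region, of 52787 bp, under the same differentiated region. Sfi1, whose start sites reach both, spanned 73708 bp in differentiated and 66723 bp in undifferentiated cells. Eya1 spanned 9310 bp in differentiated and 1801 bp in undifferentiated cells. Mid1 had regions of 10576 and 1817 bp in differentiated cells and one of 1035 bp in undifferentiated cells, at different start sites. The 23498 bp region of differentiated cells on chromosome 9 that covers a run of predicted genes (Gm10715 to Gm10720) is given as uncertain. Such predicted genes can be near-identical copies, and how reads with several matches were placed was not stated.

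**Figure D3:**
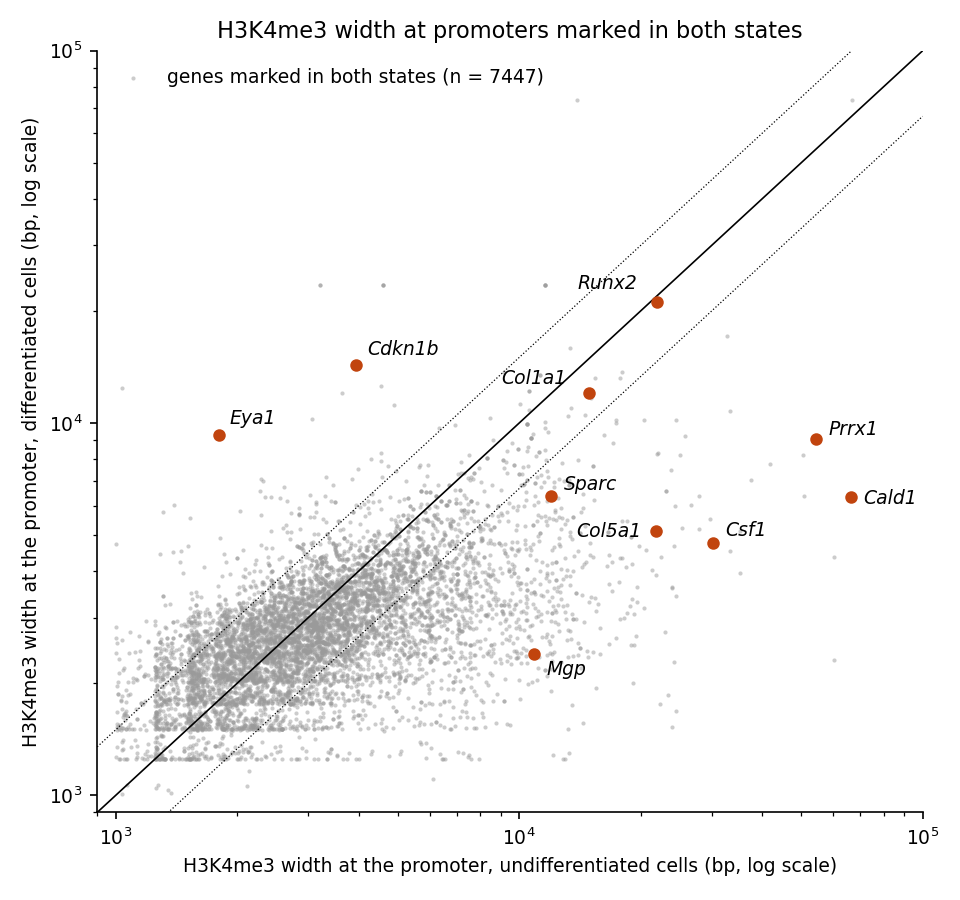
Summed width of H3K4me3 regions at the promoter of each of 7447 genes marked in both states, differentiated (y axis) against undifferentiated cells (x axis), in bp on log scales. The solid line marks equal widths and the dotted lines 1.5-fold differences; Runx2 lies near the solid line, Cdkn1b and Eya1 above it and Prrx1, Cald1 and Csf1 below it.

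In base pairs the difference in width was larger on the downstream side of the start site, where regions also reached farther in both states. At 5239 pairs with start sites of 1 gene, the region reached a median of 1746 bp downstream of the TSS in differentiated and 1906 bp in undifferentiated cells, with a median shift of -149 bp (-175 to -128). Upstream it reached 751 bp in differentiated and 687 bp in undifferentiated cells, and the median of the paired shifts was -14 bp (-34 to 0), of opposite sign to the difference of the medians. In the widest of 4 groups by mean width, the downstream edge lay at 2573.5 bp in differentiated and 4243 bp in undifferentiated cells, and it was closer to the start site in differentiated cells at 81.1% of pairs. The upstream edge of the same pairs lay at 1016.5 bp in differentiated and 1542.5 bp in undifferentiated cells, and was closer at 70.1%. In the narrowest group both edges lay farther out in differentiated cells, with median shifts of 92.5 bp upstream and 89.5 bp downstream.

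**Figure D4:**
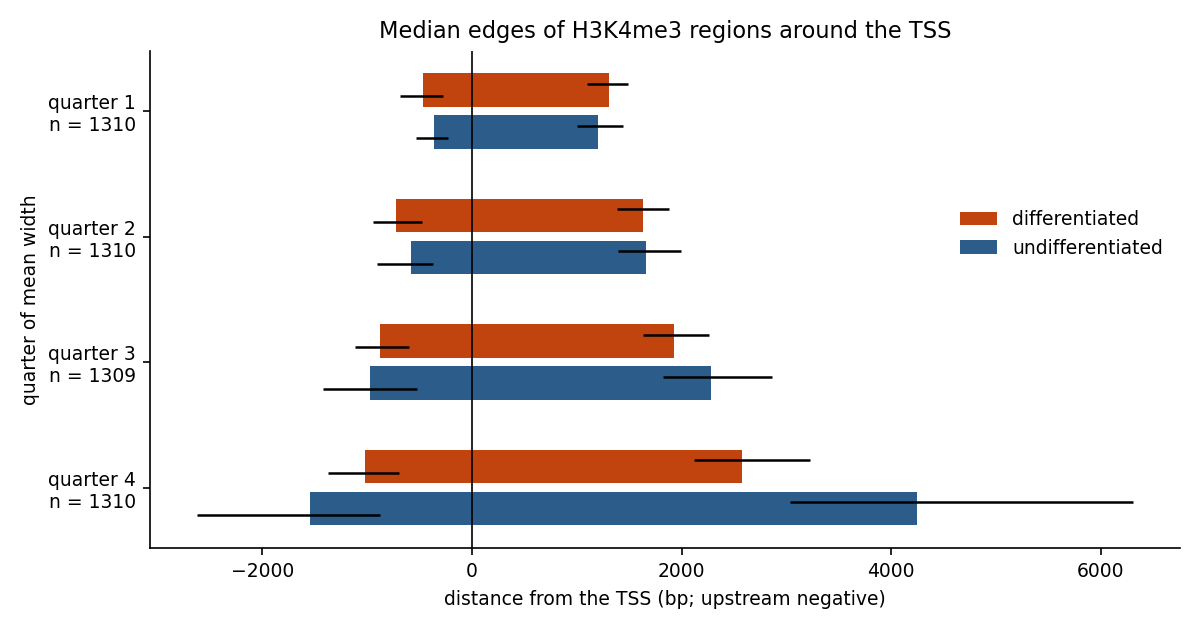
Median distance of the upstream and downstream edges of H3K4me3 regions to the TSS (bp; bars, with quartiles as lines) in differentiated and undifferentiated cells, for 4 groups of pairs by geometric mean width. In the widest group the downstream edge lay at 2573.5 bp in differentiated and 4243 bp in undifferentiated cells.

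H3K9Ac, H4K5Ac and H3K4me1 were present at nearly all promoters with H3K4me3 in either state, and H3K36me3 at fewer. At the 1458 promoters marked by H3K4me3 in differentiated cells only, H3K9Ac was present at 100% in differentiated and 99.0% (98.4 to 99.5) in undifferentiated cells. At the 323 marked in undifferentiated cells only it was present at 98.1% (96.0 to 99.3) in differentiated and 96.9% in undifferentiated cells. Promoters without H3K4me3 in either state had H3K9Ac at 18.8% in differentiated and 13.4% in undifferentiated cells. H4K5Ac and H3K4me1 were likewise present at 96.6% or more of promoters in each of the marked classes in both states. H3K36me3 lay at 58.4% of promoters marked in differentiated cells only in differentiated cells and at 58.6% in undifferentiated cells. For promoters marked in undifferentiated cells only it was 58.2% in differentiated and 61.6% in undifferentiated cells, and for those marked in both 77.6% in differentiated and 78.7% in undifferentiated cells. H3K36me3 touched the gene body of 89.0% of genes marked in differentiated cells only in differentiated cells, and of 88.8% of the same genes in undifferentiated cells. For genes marked in undifferentiated cells only the gene body shares were 87.9% in differentiated and 92.0% in undifferentiated cells.

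RUNX2 peaks at promoters were fewer in differentiated cells in every H3K4me3 class, alongside a RUNX2 list of 6272 peaks in differentiated and 12674 in undifferentiated cells. At genes marked by H3K4me3 in both states, RUNX2 had a promoter peak at 12.8% in differentiated and 34.8% in undifferentiated cells. At genes marked in differentiated cells only the shares were 8.16% in differentiated and 22.0% in undifferentiated cells, and over all genes 5.63% in differentiated and 15.1% in undifferentiated cells. The shorter RUNX2 list bounds the shares in differentiated cells in every class, so they say nothing particular to promoters marked in differentiated cells only. C/EBPβ had a peak at 12.0% of those promoters in differentiated and 17.6% in undifferentiated cells. At promoters marked in both states its shares were 13.2% in differentiated and 21.9% in undifferentiated cells. Over all genes they were 6.55% in differentiated and 10.7% in undifferentiated cells. The C/EBPβ list too was shorter in differentiated cells, with 10847 peaks against 15622 in undifferentiated cells.

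Bases inside the undifferentiated H3K4me3 region only were mostly inside regions of the other marks in both states. Within the pairs, 8.71 Mb lay inside the undifferentiated region only, 16.2 Mb inside both and 2.37 Mb inside the differentiated region only. Of the 8.71 Mb, H3K9Ac covered 74.8% in differentiated and 57.3% in undifferentiated cells, H4K5Ac 91.1% in differentiated and 97.3% in undifferentiated cells, and H3K4me1 99.6% in differentiated and 99.8% in undifferentiated cells. H3K9Ac regions at 6565 of the pairs were wider in differentiated cells, with median widths of 4152 bp in differentiated and 3473 bp in undifferentiated cells and a median log2 ratio of 0.20 (0.19 to 0.21). Where H3K4me3 was at least 1.5-fold narrower, H3K9Ac had a median log2 ratio of 0.22, and 0.929% of its regions were narrower by the same measure. RUNX2 had 194 peaks in the 8.71 Mb in differentiated and 433 in undifferentiated cells, or 22.3 and 49.7 per Mb. In the 16.2 Mb held by both states it had 52.0 per Mb in differentiated and 152 per Mb in undifferentiated cells. H3K9Ac had 23671 regions in differentiated and 14975 in undifferentiated cells over the whole genome, and the part of that list length in its widths was not tested.

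**Figure D5:**
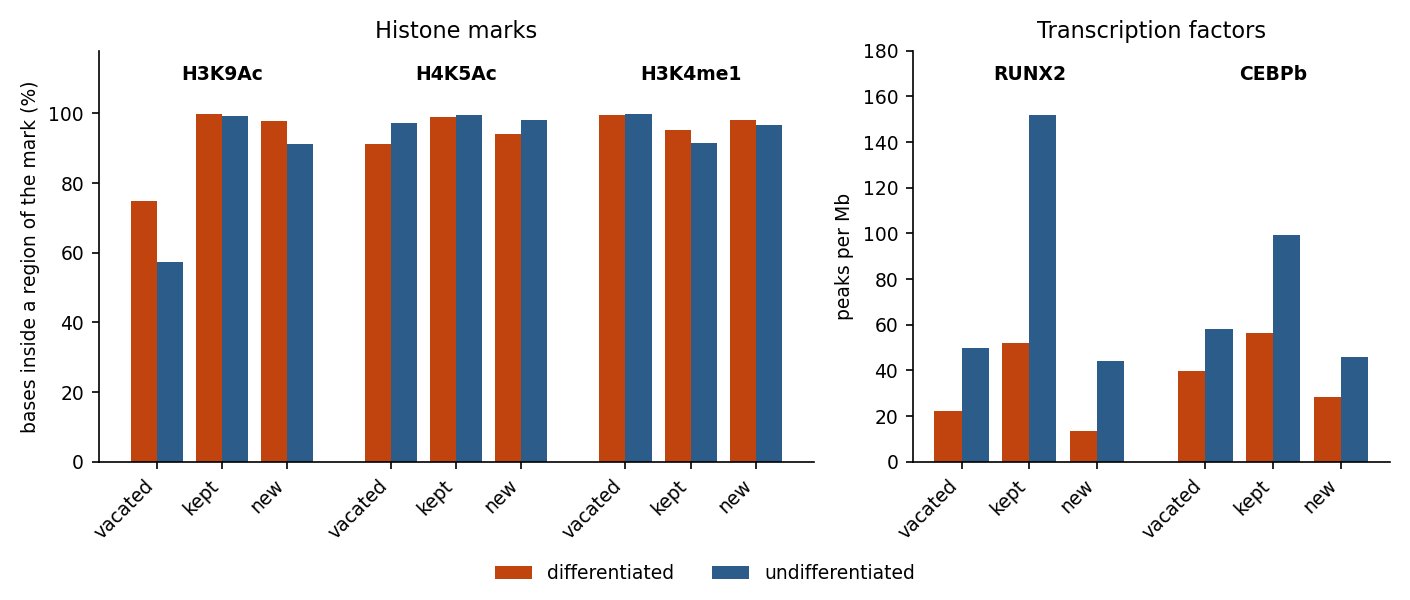
Share of bases inside regions of 3 histone marks (left, %) and peaks per Mb of RUNX2 and C/EBPβ (right) in differentiated and undifferentiated cells, for bases inside the undifferentiated H3K4me3 region only (vacated), both regions (kept) or the differentiated region only (new). In vacated bases H3K9Ac covered 74.8% in differentiated and 57.3% in undifferentiated cells.

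Promoters marked in 1 state only were CpG-rich less often than those marked in both, and the intervals of the classes found in 1 state overlapped. A promoter was called CpG-rich when the 1000 bp around its start site had at least 50% GC and a ratio of observed to expected CpG of at least 0.6. CpG-rich were 63.1% (60.6 to 65.6) of promoters marked in differentiated cells only, 65.3% (59.9 to 70.5) of those marked in undifferentiated cells only, 82.4% (81.5 to 83.3) of those marked in both, and 19.8% of those marked in neither. The motif TGTGGT, searched on both strands in the 200 bases before the start site, was present at 9.67% (8.20 to 11.3) of promoters marked in differentiated cells only, 5.26% (3.10 to 8.29) of those marked in undifferentiated cells only, 7.51% of those marked in both and 10.3% of all promoters. The CCAAT box was present at 31.6% of promoters marked in differentiated cells only, 33.7% of those marked in undifferentiated cells only, 31.9% of those marked in both and 30.6% of all promoters. The sequence TATAAA was present at 4.87% of promoters marked in differentiated cells only, 3.72% of those marked in undifferentiated cells only and 3.91% of those marked in both. Its share was 14.3% at promoters marked in neither and 10.0% over all promoters.

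The X chromosome stood apart in the share of promoters marked. Of its 927 genes, 105 or 11.3% (9.36 to 13.5) were marked in differentiated cells only, against 6.35% (6.03 to 6.69) of 21282 autosomal genes. In total 25.1% of X-linked genes were marked in differentiated and 14.5% in undifferentiated cells, and 40.7% of autosomal genes were marked in differentiated and 35.9% in undifferentiated cells. Bgn is among the X-linked genes marked in differentiated cells only.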

How the data were processed

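Both H3K4me3 region lists came from vehicle-treated MC3T3-E1 cells. The submitters' processing notes name Bowtie, HOMER and the mm9 build, without versions or settings. Each deposited list holds merged peaks of biological replicates, with region boundaries and a score made by the authors, whose unit is not stated. That score was used only as a percentile within its list. Read depth is unknown.

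Regions were placed on the mm9 genome with the GENCODE vM1 annotation (22226 genes, 70009 TSSs). Cebpd was added by name, and 13 mitochondrial genes were left out after the data were seen. A gene was marked when a region lay within 1 kb of any of its TSSs. Widths were compared as log2 ratios, differentiated over undifferentiated, over 1-to-1 overlaps or summed over the promoters of a gene. Intervals for shares are exact Clopper-Pearson intervals and those for medians are binomial order-statistic intervals. Python 3.11.15, numpy 2.4.6, pandas 2.3.3 and scipy 1.17.1 were used, and the steps were tested on simulated data with known answers. The members, gene lists and naming rules were chosen with earlier results of these data known. Named genes are 30 fixed genes, the 10 top-ranked of each class found in 1 state, the 10 widest and the 10 most changed in width (mean width at least 2 kb), and list members marked in 1 state. Other list members given with widths were chosen after their values were seen. Both input DNA samples were not analysed here. The values of some named genes are not reported here, though the counts include them.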

Additional observations from a re-analysis of the deposited data

How the results depend on the processing

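Of 90 recomputed values, 69 stayed within 1.5 times the count given above or within its interval, and 21 moved. Some of the 69 were bound to stay and show no stability. Merging regions within 1 kb left the number of pairs, the width ratio and the edge shifts exactly as they were. A reversal of sign was checked only for width ratios and edge shifts, and 0 of these reversed. A change in which class held more genes was counted as moved. With the differentiated list cut by score to the length of the undifferentiated list, 671 genes were marked in differentiated cells only and 700 in undifferentiated cells only, and 90.6% of differentiated and 90.3% of undifferentiated regions were shared. The cut reclassified 377 genes as undifferentiated only by construction, and it left the median log2 width ratio at -0.14 with 1526 pairs narrower and 482 wider. Without the lowest 25% of each list by score, 542 genes were marked in undifferentiated cells only, 76.7% of differentiated and 90.5% of undifferentiated regions were shared, the median log2 width ratio was -0.19 and 298 pairs were wider. When an overlap had to cover 50% of both regions, 68.0% of differentiated and 80.5% of undifferentiated regions were shared. At 2-fold, 832 pairs were narrower and 65 wider in differentiated cells; relative to the median ratio, 849 were wider at 1.5-fold. RUNX2 peaks at promoters marked in both states were found at 11.4% within 500 bp and 14.2% within 2 kb in differentiated cells, and at 32.5% within 500 bp and 36.9% within 2 kb in undifferentiated cells. In 500 bp windows 71.3% of promoters marked in differentiated cells only, 73.7% of those marked in undifferentiated cells only and 84.9% of those marked in both were CpG-rich. Keeping the mitochondrial genes, an alternative chosen after seeing the data, gave 1467 genes marked in differentiated cells only. Edge shifts do not depend on which start site is used, since both states share it, so those recomputed values could not move either. No paired analysis was possible because each state has 1 merged list. Unknown depth, enrichment and caller thresholds limit every count and width.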
